A study of Mus musculus with 6 samples.

Results

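The 10 transcripts described here encode proteins that carry, dock and fuse the secretory granules of salivary acinar cells. They are the small GTPases Rab3d, Rab26, Rab27a and Rab27b, the Rab27 effector Sytl1, the vesicle SNAREs Vamp2 and Vamp8, the target SNAREs Snap23 and Stx3, and the SNARE-binding protein Stxbp2. They were taken by symbol from a list of granule Rab and SNARE genes. Each symbol matched 1 Ensembl identifier in an annotation of the build mm10, giving 10 of the 52636 genes in the count tables. The rule for membership used no measured value, but the members were chosen with earlier results of these data known. RNA came from the parotid gland, a salivary gland built mainly of protein-secreting acinar cells, of FVB mice, an inbred strain, 28 days old. There were 3 samples from untreated mice and 3 from mice labelled as treated. The labels carry the same note of 1 dose of 5 Gy on all 6 samples, and it was taken to apply to the treated ones, called irradiated here. The labels name no genetic change in either group and give neither the time from irradiation to collection nor whether each sample was 1 mouse. If the samples of a group came from 1 mouse, the p-values below measure only technical spread. If each was a pool of mice, they measure the spread between pools.

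In regulated exocytosis a granule is brought to the apical membrane by Rab GTPases, which in their GTP-bound form recruit tethers and motors. Fusion follows when a vesicle SNARE zips together with target SNAREs in the plasma membrane, a step that Sec1/Munc18 (SM) proteins guide. In acinar cells this machinery releases amylase and other stored proteins upon nerve signals. Rab3d sits on mature zymogen-type granules, and Rab26 and Rab3d are known targets of the acinar transcription factor Mist1, encoded by Bhlha15.

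The promoter windows shown next belong to the members with the highest and the lowest RNA level, Rab3d and Vamp8, and to the single window among those searched that held the E-box bound by Mist1. Each is the 250 bases before a RefSeq transcription start (build GRCm38.p6), written 5′ to 3′ on the gene's strand. Capitals mark the Mist1 E-box CATATG, which reads alike on both strands, and the GC box GGGCGG or its reverse complement CCGCCC.
Rab3d, chr9:21918184-21918433, minus strand: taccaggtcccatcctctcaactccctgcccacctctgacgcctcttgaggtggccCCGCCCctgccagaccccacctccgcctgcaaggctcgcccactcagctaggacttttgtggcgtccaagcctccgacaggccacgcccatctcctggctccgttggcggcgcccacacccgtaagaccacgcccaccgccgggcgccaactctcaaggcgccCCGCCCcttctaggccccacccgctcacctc
Rab27a, second start site, chr9:73063898-73064147, plus strand: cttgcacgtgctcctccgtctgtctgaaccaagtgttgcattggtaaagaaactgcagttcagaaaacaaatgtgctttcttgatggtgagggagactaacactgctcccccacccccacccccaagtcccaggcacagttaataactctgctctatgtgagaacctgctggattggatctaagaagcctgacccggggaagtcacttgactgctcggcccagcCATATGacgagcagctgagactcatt
Vamp8, chr6:72390668-72390917, minus strand: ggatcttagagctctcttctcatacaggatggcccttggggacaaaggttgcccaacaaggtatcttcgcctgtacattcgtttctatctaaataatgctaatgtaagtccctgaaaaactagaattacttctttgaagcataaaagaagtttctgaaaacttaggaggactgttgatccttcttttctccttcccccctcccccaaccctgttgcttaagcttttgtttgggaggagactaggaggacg
Windows were searched for 7 members at 8 start sites, and none for Rab26, Rab27b and Vamp2. The E-box CATATG stood in 1 of the 8, beginning 26 bases before the second start of Rab27a, and in 3.46% of all 32851 windows of this length. GC boxes stood in the windows of Rab3d (2 boxes) and of the first Rab27a start (1 box), and in 32.7% of all windows. The Rab3d window was 69.2% G or C and the Vamp8 window 43.6%, where the median of all windows was 52.4%. These are matches of letters and say nothing of binding.

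Each library held 7108359 to 15036193 counts in genes, with irradiated replicate 2 the shallowest. That library stood apart: the unaligned share was 10.01% of reads, where others had 3.75% to 4.33%, and 184 reads were set aside for low mapping quality, against at least 342749. A few gland transcripts were far above the other libraries in it. Prol1 stood at 442.4 CPM there (CPM are counts scaled to a common library size, here also for composition) and at 32.8 to 40.9 CPM in the other 5 libraries, and Muc19, a mucin of mucous glands, at 51 counts there and 0 CPM elsewhere. Dcpp3, from the sublingual and mucous markers, was at 173.7 CPM there and at most 59.7 CPM elsewhere. Klk1b26, from the submandibular granular duct markers, was at 13.4 CPM there and at most 2.33 CPM elsewhere. Of the same lists Dcpp1, Dcpp2, Galnt12 and Egf were not highest there. Whether this library held tissue of other salivary glands was not tested. The members that removal of irradiated replicate 2 moved by over 1.5 times are also given without it. The irradiated label was matched by Cdkn1a, the p53 target encoding p21, at 2.08 ± 0.222 CPM in untreated glands against 21.9 ± 3.97 CPM in irradiated glands (SD, n = 3 each). Acinar identity was plain, since the 10 acinar markers summed to between 409927 and 551311 CPM in every library. Nerve markers summed to at most 1.21 CPM, and among them Snap25, the neuronal counterpart of Snap23, did not exceed 1 count in any library.

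All 10 members passed the filter on low counts, and none passed the threshold of an adjusted p of 0.05 by edgeR's quasi-likelihood test of irradiated against untreated glands. Across all 12885 genes tested 1.00% were called (0.652% higher and 0.349% lower), so a count of 0 among 10 is near the background. DESeq2 and limma-voom, which called 191 and 25 genes in all, also called 0 members. At an unadjusted p under 0.05 edgeR gave 4 members, 3 lower (Vamp2, Sytl1 and Rab27a) and 1 higher (Rab27b), beside 15.0% of all genes. DESeq2 gave 2 and limma-voom 3, but the share over all genes was not formed for these tests, so those counts have no background here. The median log2 fold change of the members was -0.15, with 6 negative and 4 positive values, and that of all tested genes was -0.01. The untreated and irradiated libraries did not overlap for 2 of the 10 members, which is 20% beside 21.2% of all genes. For 9 of the 10 the 95% interval of the fold change lay wholly within 2-fold in either direction, the exception being Vamp8, and for 6 it lay within 1.5-fold. These intervals are not adjusted for the number of genes.

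**Figure D1:**
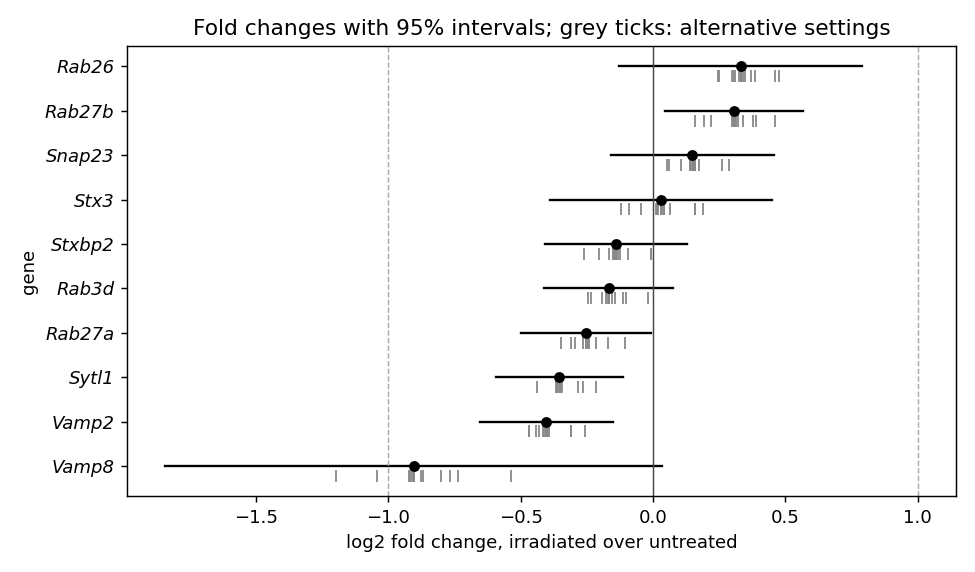
Log2 fold change of each gene, irradiated over untreated, by edgeR (points) with its 95% interval (lines); dashed lines mark 2-fold, and grey ticks give the fold change under each alternative setting. Vamp8 has the widest interval, from -1.84 to 0.03, and Stx3 is the gene whose ticks lie on both sides of 0.

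**Figure D2:**
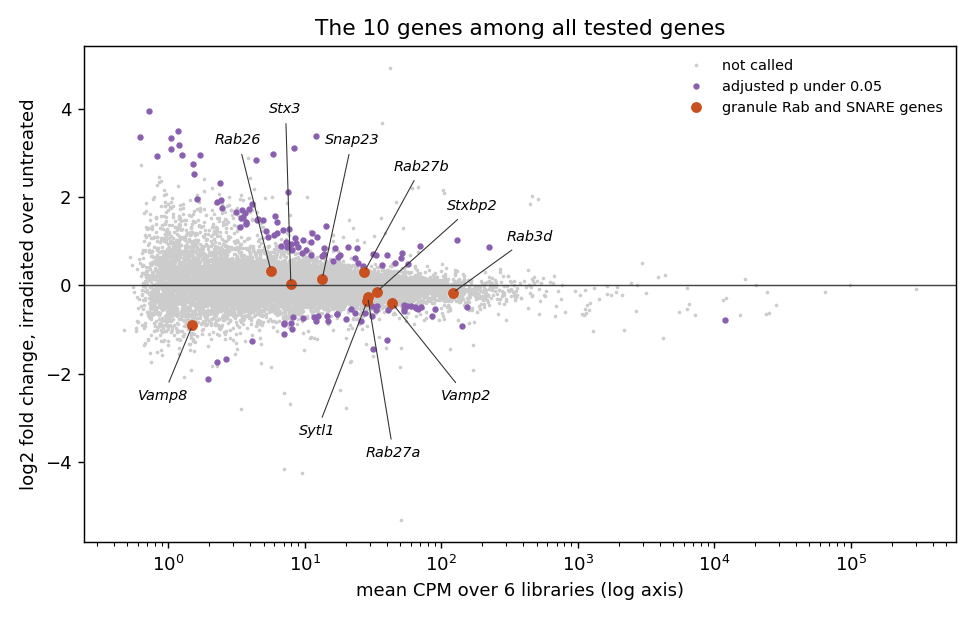
Mean level over the 6 libraries (CPM, log axis) against log2 fold change, irradiated over untreated, for all 12885 tested genes. The 129 genes with an adjusted p under 0.05 are purple; the 10 granule Rab and SNARE genes (orange, labelled) lie within the cloud of uncalled genes.

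Compared per kilobase of annotated exon, Rab3d was the most abundant member in both groups, at 30.6 ± 2.99 CPM per kb in untreated glands against 27.2 ± 2.47 in irradiated glands (SD, n = 3). Its untreated level was followed by Vamp2 at 13.1 ± 1.498, Sytl1 at 12.8 ± 0.135, Stxbp2 at 8.54 ± 0.686 and Rab27a at 8.11 ± 1.00 CPM per kb. Lower in the untreated order stood Snap23 (2.97 ± 0.429), Rab27b (2.29 ± 0.269), Rab26 (1.77 ± 0.120), Stx3 (1.36 ± 0.269) and Vamp8 (0.856 ± 0.378 CPM per kb). Neighbours whose untreated libraries overlapped, and so did not differ beyond their spread, were Vamp2 and Sytl1, Stxbp2 and Rab27a, Snap23 and Rab27b, and Stx3 and Vamp8. The irradiated order was the same except that Sytl1 (9.999 ± 1.26) and Vamp2 (9.87 ± 1.18 CPM per kb) changed places, with overlapping libraries. Per kilobase of the longest transcript Vamp2 remained above Sytl1 in both groups. Exon length follows the annotation and not the transcripts used in the gland, so ratios between genes and the order of close neighbours rest on it. Among all tested genes with a known length, 95.9% had a lower level per kb than Rab3d, 89.1% lower than Vamp2 and 20.1% lower than Vamp8.

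**Figure D3:**
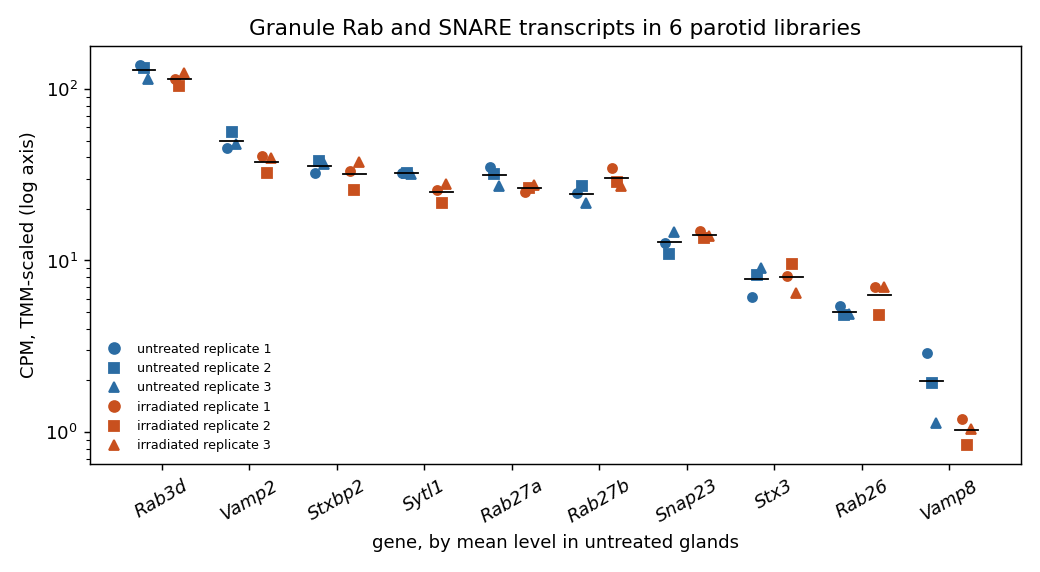
Level of each gene in each library (CPM scaled by TMM, log axis); shapes give the replicate number, blue marks untreated and orange irradiated libraries, and black bars are group means (n = 3). Groups are apart for Vamp2 and Sytl1, where all 3 irradiated libraries lie below all 3 untreated ones, and touch or overlap for the other 8 genes.

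Rab3d (ENSMUSG00000019066; chromosome 9, 21907491 to 21918192, mm10) marks secretory granules of exocrine cells. It had 138.1, 132.9 and 114.2 CPM in untreated replicates 1, 2 and 3, and 114.9, 103.6 and 124.2 CPM in the irradiated ones. The ranges overlapped, and only irradiated replicate 2 lay below every untreated library. The log2 fold change was -0.17 (SE 0.12, 95% interval -0.41 to 0.08), with an edgeR adjusted p of 0.542. Without irradiated replicate 2 it was -0.10. With 861 to 1726 counts per library, Rab3d was the deepest measured of the members. Within the Rab3 family it took 99.3% to 100% of the summed CPM per kb of every library, since Rab3a, Rab3b and Rab3c had at most 5 counts in any library.

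Rab26 (ENSMUSG00000079657; chromosome 17, 24527241 to 24534210) acts in granule maturation and amylase release in acinar cells. Its level was 5.43, 4.81 and 4.87 CPM across untreated replicates 1 to 3, beside 6.99, 4.81 and 6.99 CPM across the irradiated replicates. Irradiated replicates 1 and 3 were above all untreated libraries, and irradiated replicate 2 was among them. The log2 fold change was 0.33 (SE 0.22, interval -0.13 to 0.79), with an edgeR adjusted p of 0.516, and 0.47 without irradiated replicate 2 (adjusted p = 0.389; 0.374 to 0.806 over all settings). Rab26 rests on 40 to 105 counts per library, and 10.3% of its annotated exon bases overlap another gene, mostly Traf7 on the same strand, where reads may have gone uncounted as ambiguous. Bhlha15, the gene of Mist1, stood at 385.5 ± 21.4 CPM in untreated glands against 321.6 ± 25.2 CPM in irradiated glands (SD, n = 3). Its irradiated libraries were all below the untreated ones, yet the log2 fold change of -0.26 (SE 0.12) had an edgeR adjusted p of 0.326 and did not pass.

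Rab27a (ENSMUSG00000032202; chromosome 9, 73044854 to 73097629) and Rab27b (ENSMUSG00000024511; chromosome 18, 69979131 to 70141605) are paralogs that dock granules at the plasma membrane through synaptotagmin-like effectors. Rab27a stood at 35.1, 32.0 and 27.3 CPM in the untreated set, while the irradiated set read 25.0, 26.3 and 27.7 CPM. Untreated replicate 3 lay within the irradiated range, while the other untreated libraries lay above it. The log2 fold change was -0.25 (SE 0.12, interval -0.50 to -0.01), with an edgeR adjusted p of 0.313. It was -0.17 without untreated replicate 1, -0.35 without untreated replicate 3 and -0.10 with library totals alone. Of the annotated exon bases of Rab27a, 3.84% overlap a processed pseudogene on the same strand, where reads may have gone uncounted as ambiguous. Rab27b stood at 24.6, 27.3 and 21.5 CPM across untreated replicates 1 to 3, beside 34.6, 28.7 and 27.1 CPM across the irradiated replicates. Irradiated replicates 1 and 2 were above every untreated library, and irradiated replicate 3 lay just under untreated replicate 2. Its log2 fold change was 0.31 (SE 0.12, interval 0.05 to 0.57), with an edgeR adjusted p of 0.244, and was 0.19 without irradiated replicate 1.

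The paralogs thus had estimates of opposite sign. The ratio of Rab27a to Rab27b in CPM per kb was 3.92, 3.23 and 3.49 across untreated replicates 1 to 3, beside 1.99, 2.52 and 2.81 across the irradiated replicates. Every irradiated library had a lower ratio than any untreated one. Groups were apart in CPM for 21.2% of all tested genes, and no such figure was formed for ratios between genes. The ratio of Rab27a to Rab27b and 3 others were formed after the members' values had been seen, so no test is given. Rab27b took 22.1% ± 1.67 of the pair's CPM per kb in untreated glands against 29.3% ± 3.70 in irradiated glands (SD, n = 3). Rab27b has the longest annotated exons of the 10 genes (10679 bases) and the lowest G and C content (37.9%). Across all tested genes, the fifth with the longest exons had a median log2 fold change of 0.08 and the fifth with the shortest -0.16. When offsets for length and GC content were added, the log2 fold change of Rab27b was 0.16 (adjusted p = 0.671; 0.0642 to 0.681 over all settings) and that of Rab27a was -0.31. The ratio of Rab3d to Rab26 was likewise lower in each irradiated library, at 17.3, 18.8 and 15.9 in untreated and 11.2, 14.6 and 12.1 in irradiated glands. Per kb of the longest transcript it was 10.8, 11.8 and 10.006 against 7.01, 9.18 and 7.58.

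Sytl1 (ENSMUSG00000028860; chromosome 4, 133253090 to 133263113) encodes synaptotagmin-like protein Slp1, a Rab27 effector. It stood at 32.5, 32.4 and 31.9 CPM in the untreated set, while the irradiated set read 25.7, 21.8 and 28.1 CPM. All irradiated libraries were below all untreated ones, and the untreated libraries were nearly level, with an SD of 0.339 CPM. The log2 fold change was -0.35 (SE 0.12, interval -0.60 to -0.11), with an edgeR adjusted p of 0.140, so the difference did not pass. Without irradiated replicate 2, where its level was lowest, the log2 fold change was -0.26 (adjusted p = 0.323; 0.110 to 0.387 over all settings). Sytl1 took 74.8% to 81.1% of the CPM per kb of the 5 synaptotagmin-like genes in each library, with no separation of the groups.

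Vamp2 (ENSMUSG00000020894; chromosome 11, 69088490 to 69092384) and Vamp8 (ENSMUSG00000050732; chromosome 6, 72385223 to 72390703) encode granule-membrane SNAREs of exocrine cells. Vamp2 stood at 45.4, 56.3 and 47.9 CPM across untreated replicates 1 to 3, beside 40.9, 32.5 and 39.5 CPM across the irradiated replicates. The groups did not overlap. The log2 fold change was -0.40 (SE 0.12, interval -0.66 to -0.15), and its edgeR adjusted p of 0.107 was the lowest among the members but missed the threshold. Without irradiated replicate 2 the log2 fold change was -0.31 (adjusted p = 0.240; 0.0700 to 0.354 over all settings). Of the 7 VAMP genes Vamp2 held the largest share of CPM per kb in every library, at 41.2% ± 4.13 in untreated glands against 35.5% ± 1.87 in irradiated glands (SD, n = 3). In this share the groups overlapped, with untreated replicate 1 at 36.6% and irradiated replicate 1 at 37.2%.

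Vamp8 was scarce, at 2.88, 1.92 and 1.13 CPM in the untreated set, while the irradiated set read 1.20, 0.842 and 1.04 CPM. These values correspond to 7 to 35 counts. Irradiated replicates 2 and 3 were below all untreated libraries, and irradiated replicate 1 was above untreated replicate 3. The log2 fold change was -0.90 (SE 0.45, interval -1.84 to 0.03), with an edgeR adjusted p of 0.354. Leaving out untreated replicate 1 gave -0.53, so that library carries much of the estimate. Per kb, Vamp2 exceeded Vamp8 by between 9.57 and 25.6 times in each of the 6 libraries, and by 14.8 to 39.8 times per kb of the longest transcript. Vamp8 took 1.43% to 3.82% of the family's CPM per kb, below Vamp3 (20.8% to 25.0%) and Vamp7. Vamp7, a SNARE of late endosomes and lysosomes, took 15.6% to 20.4% in untreated libraries and 22.7% to 25.7% in irradiated ones, without overlap. The Vamp7 share was formed per kb of exon only. Groups did not overlap in CPM for 21.2% of all tested genes, and no such figure was formed for shares. RNA levels were measured here, and the amount of each SNARE protein on granules was not.

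Snap23 (ENSMUSG00000027287; chromosome 2, 120567671 to 120601255) is the target SNARE that serves non-neuronal cells in place of Snap25. It stood at 12.7, 10.9 and 14.6 CPM across untreated replicates 1 to 3, beside 14.9, 13.6 and 13.9 CPM across the irradiated replicates. The groups overlapped, with a log2 fold change of 0.15 (SE 0.15, interval -0.16 to 0.45) and an edgeR adjusted p of 0.687. It was 0.05 without untreated replicate 2, 0.26 without untreated replicate 3 and 0.06 with length and GC offsets. Snap23 held 26.5% to 32.0% of the CPM per kb of the SNAP genes, close to Snap47 (27.9% to 36.1%) and Snap29 (34.8% to 43.3%). Thus 3 of the 4 genes of this family were present at like levels. Per kb of the longest transcript, untreated mean shares were 35.5%, 33.4% and 31.1% for Snap23, Snap47 and Snap29, so their order rests on the length used. Stx3 (ENSMUSG00000041488; chromosome 19, 11775118 to 11819403) encodes a syntaxin of apical and granule membranes. It stood at 6.09, 8.22 and 9.07 CPM in the untreated set, while the irradiated set read 8.12, 9.50 and 6.48 CPM. The groups overlapped, although irradiated replicate 2 lay above every untreated library, with a log2 fold change of 0.03 (SE 0.20, interval -0.39 to 0.45) and an edgeR adjusted p of 0.967. The sign of this value turned without irradiated replicate 2, to -0.09, and without untreated replicate 1, to -0.12. Among 7 syntaxins of the plasma membrane Stx3 took 14.7% to 21.9% of CPM per kb, and Stx4a, a syntaxin of the basolateral membrane, 60.3% to 73.7%.

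Stxbp2 (ENSMUSG00000004626; chromosome 8, 3630955 to 3643644) encodes Munc18-2, the SM protein that binds Stx3 in epithelia. It stood at 32.3, 37.9 and 36.4 CPM across untreated replicates 1 to 3, beside 33.3, 25.7 and 37.3 CPM across the irradiated replicates. Only irradiated replicate 2 was below the untreated range, and the log2 fold change was -0.14 (SE 0.13, interval -0.41 to 0.13; edgeR adjusted p = 0.658). Without that library it was -0.01, and without irradiated replicate 3 it was -0.26. Stxbp2 held most of the Munc18 family's CPM per kb, at 80.1%, 82.8% and 81.9% in the untreated set, while the irradiated set had 76.0%, 67.2% and 79.5%. The groups did not overlap in this share. In CPM they did not overlap for 21.2% of all tested genes, and no such figure was formed for shares. Stxbp3, the ubiquitous Munc18 form, is named because of its value and stood at 6.76 ± 0.195 CPM in untreated glands against 10.4 ± 1.23 CPM in irradiated glands (SD, n = 3). Its log2 fold change of 0.62 (SE 0.17) had the smallest p of the wider exocytosis lists, and the edgeR adjusted p of 0.0839 missed the threshold.

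**Figure D4:**
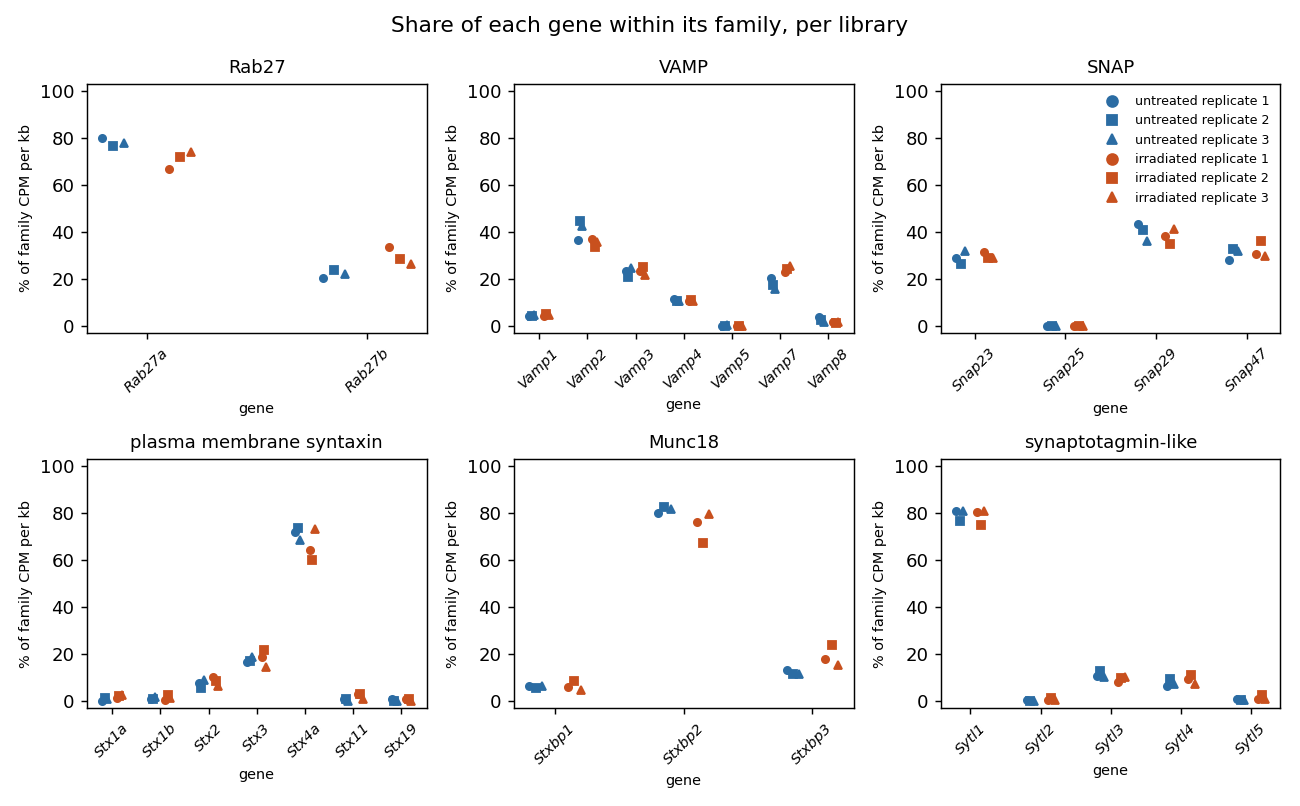
Percent of each family's summed CPM per kb of exon taken by each gene, per library (shapes are replicates, blue untreated, orange irradiated). Rab27b takes 20.3% to 23.6% of its pair in untreated and 26.2% to 33.4% in irradiated libraries, and Stxbp2, Sytl1 and Stx4a hold the largest share of their families in every library.

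The wider machinery was described with 8 lists of other genes, 138 in all, of which 101 were tested. None of the 101 was called by edgeR, beside 1.00% of all genes. DESeq2 and limma-voom, which called 191 and 25 genes in all, also called 0 of them. An unadjusted edgeR p under 0.05 was found for 15, a share near the 15.0% of all genes. They were 6 of 19 other target SNAREs, 3 of 12 other Rabs and 2 of 16 SM proteins, complexins and recycling factors. Each of the regulator, effector, calcium sensor and acinar lists held 1, and the other vesicle SNAREs 0. The median log2 fold change was -0.05 over these lists, with 40 positive and 61 negative values. Of other Rabs, 0 of 12 passed (median -0.11): Rab1a and Rab2a, which act between the ER and the Golgi, had log2 fold changes of 0.06 (SE 0.13) and -0.16 (SE 0.11). Without irradiated replicate 2 these were 0.16 and -0.089. The 14 Rab regulators had a median of -0.06, with 0 passing, and Gdi2, which extracts Rabs from membranes, stood at -0.15 (SE 0.12), or -0.065 without irradiated replicate 2 and -0.22 without irradiated replicate 3. Among 14 tested effectors and docking factors 0 passed, with a median of 0.02. Of these Mlph, a Rab27 effector that binds myosin V, stood at 0.01 (SE 0.11) and the exocrine motor Myo5c at 0.18 (SE 0.12), or 0.046 without irradiated replicate 1, 0.29 without irradiated replicate 2 and 0.11 without untreated replicate 3.

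Of 6 other vesicle SNAREs 0 passed (median -0.14), and the most abundant, Sec22b and Ykt6, both of early secretory membranes, stood at -0.08 (SE 0.12) and -0.14 (SE 0.10). Of 19 other target SNAREs 0 passed (median -0.05). Stx5a and Gosr2, SNAREs of the Golgi, stood at -0.25 (SE 0.12) and -0.05 (SE 0.13). The 16 SM proteins, complexins and recycling factors had a median of 0.00 and 0 calls. In that list Napa, the adaptor of the SNARE-disassembling ATPase Nsf, stood at -0.04 (SE 0.10) and Dnajc5, a granule chaperone, at -0.06 (SE 0.10). Napa was -0.017 without irradiated replicate 2, and Dnajc5 -0.032 without untreated replicate 1 and -0.099 without untreated replicate 3. Of 13 calcium sensors and granule membrane proteins 0 passed (median -0.04), with Sypl at -0.05 (SE 0.12) and Syngr2 at -0.20 (SE 0.11). The 7 tested acinar secretory regulators all had negative estimates with 0 calls (median -0.14), and Xbp1, the regulator of the secretory pathway, stood at -0.28 (SE 0.16), which was -0.12 without irradiated replicate 2 and -0.47 without irradiated replicate 3. Sytl3, a further synaptotagmin-like gene, and Use1, a SNARE of the ER, were named after their values were seen. They stood at -0.62 (SE 0.19) and -0.38 (SE 0.13), with edgeR adjusted p values of 0.123 and 0.155.

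Rab27a, Vamp8 and Stxbp2 also serve granule release in lymphocytes and other blood cells. Summed markers of T and natural killer cells and of B cells were higher in every irradiated library than in any untreated one. Macrophage and dendritic cell markers summed to 114.3 to 146.8 CPM in untreated and 146.6 to 152.3 CPM in irradiated libraries. Those of mast cells, mostly Kit, also a duct marker, summed to 47.2 to 51.1 and 49.4 to 56.1 CPM. Both overlapped, with 0 of 8 and 0 of 5 tested markers called. The 15 T and natural killer cell markers summed to 17.8, 2.54 and 18.3 CPM across untreated replicates 1 to 3, so untreated replicate 2 alone sets the low end, and to 39.4 to 54.4 CPM in irradiated libraries, with 2 of 12 tested markers called higher (Cd5 and Cd8b1). Of the killing genes, Gzma and Gzmb did not exceed 0.262 CPM in any library and were not tested. Prf1, the perforin gene, was also too scarce to be tested. It had 4, 1 and 4 counts in untreated replicates 1 to 3 and 10, 4 and 5 in the irradiated ones. In CPM these were 0.0874 to 0.329 in untreated and 0.432 to 0.666 in irradiated libraries, which do not overlap, whereas the counts do. Nkg7, a granule protein of killer cells, was at 0.175 to 1.20 CPM and 0.259 to 0.722 CPM, which overlap. The 7 B cell markers summed to 18.0, 0.525 and 10.2 CPM in the same order, again lowest in untreated replicate 2, and to 34.5 to 35.8 CPM after irradiation, with 1 called higher (Bank1). Of the acinar markers 1 of 10 was called, Car6, which fell, and 0 of 10 duct markers passed. Skeletal muscle markers summed to 463.4 to 572.3 CPM in untreated libraries and to 398.7, 449.0 and 149.4 CPM across irradiated replicates 1 to 3, the last alone being far lower, with 0 of 5 called. The part of these cells in the members' values was not tested, and in bulk tissue fewer cells of a type and less RNA per cell cannot be told apart.

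Genes with the profile most like that of Rab3d, Rab26 and Rab27b were sought among genes of at least 10 CPM, by the root mean square distance between centred log2 CPM over the 6 libraries. Nearest to Rab3d lay Pds5a, Arl8b and Scp2, at distances of 0.02, 0.03 and 0.03 log2 units, where the median of 5653 candidates was 0.18. Nearest to Rab26 lay Gfpt1 (0.04), Tars2 (0.07) and Efr3a (0.07), with a median distance of 0.26 over 5654 candidates. For Rab27b the nearest were Clock (0.04), Syne2 (0.04) and Mef2a (0.05), again with a median of 0.26. Since a search over 5653 genes or more on 6 libraries always finds near profiles, these names are a description only.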

How the data were processed

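Each sample came with 1 deposited table of unnormalized read counts for mouse Ensembl identifiers. The submitters' processing notes list bcl2fastq, HISAT2, HTSeq and the build mm10. Versions, annotation release and strand setting are not given in the sources used here, so overlapping and antisense genes cannot be separated with certainty. Rows naming no gene held 32.4% to 40.7% of reads per library, including 8.22% to 9.83% ambiguous between genes, and were left out. Of 52636 identifiers 52489 matched a symbol in GENCODE M21 (GRCm38), the source of coordinates, exon lengths and GC content.

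Groups came from the treatment characteristic. Tests used edgeR 4.0.16 in R 4.3.3 (quasi-likelihood, robust, TMM scaling, filterByExpr with minimum count 10) on all genes, with Benjamini-Hochberg adjustment over the 12885 kept, after a test on simulated data. DESeq2 1.42.0 and limma 3.58.1 (voom) were alternatives. CPM use TMM-scaled library sizes. CPM per kb divides by the union of annotated exons. SE is the log2 fold change over the root of its F statistic.

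The members, lists and alternatives were chosen with earlier results of these data known. Named are all members, Cdkn1a, Bhlha15, called genes of each list (at most 4) or else its 2 most abundant tested ones, and the nearest profiles; 1 gene that the rule names is not reported here. Other genes are said to be named after their values were seen, or are cell type markers and relatives of members.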

Additional observations from a re-analysis of the deposited data

How the results depend on the processing

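No member was called in any of the 16 settings run (the main one included), and except for Stx3 each kept the sign of its fold change in every setting that tested it. With minimum count 30 Vamp8 was not tested. Counts over all genes moved more: 129 by the main test, 282 with library totals alone (260 higher and 22 lower, against 84 and 45), 518 with no count filter, 26 without robust shrinkage, 25 by limma-voom, 191 by DESeq2, and 45 to 155 when 1 library was left out (45 without irradiated replicate 1, 77 without untreated replicate 2). With library totals alone the median of all genes was 0.14 and that of the members -0.01, and estimates of Rab26 and Rab27b were 0.46 each. Without irradiated replicate 3 the members' median was -0.25. Of the other exocytosis genes 1 was called with no count filter: Rab37, at 1, 1 and 3 counts in untreated and 11, 8 and 16 in irradiated libraries.

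Titles number the samples 1 to 3 in both groups, but same-numbered samples did not deviate together (correlations across genes of 0.02, -0.11 and -0.11), so the numbers were not taken as pairs. With the replicate block 53 genes and 0 members were called.

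Signs turned for values near 0, and the cause was not tested. Stx3 was -0.047 with length and GC offsets and -0.12 to 0.16 with 1 library left out, Rab1a -0.012 and -0.00030 to 0.16, and Mlph -0.031 and -0.035 to 0.078, and -0.0028 with no count filter. With library totals alone Sec22b was 0.064, Ykt6 0.0073, Gosr2 0.095, Napa 0.10, Dnajc5 0.086 and Sypl 0.10. With 1 library left out Sec22b ranged from -0.19 to 0.00050, Gosr2 from -0.19 to 0.075 and Sypl from -0.092 to 0.039. Vamp8, Rab26 and Stx3 rest on few reads, and with 3 libraries a group small differences cannot be told from 0.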
